A study of Mus musculus with 2 samples.

Results

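Bone morphogenetic proteins (BMPs) and transforming growth factor beta (TGF-beta) form one superfamily of secreted signals. The genes of these families were chosen by name, as probe sets whose only gene symbol in the platform annotation begins with or equals the symbol of a BMP, growth differentiation factor (GDF), TGF-beta, activin subunit, receptor, Smad, Id protein or secreted antagonist. The rule took in 122 probe sets of 61 genes, out of 34958 probe sets of 18194 named genes on the array, and used no measured value. It also caught 6 genes that match by name but are not ligands, receptors, Smads, Id genes or core antagonists (Bmp1, Bmp2k, Tgfb1i1, Fstl1, Fstl4 and Fstl5), which are described apart.

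The measurements came from 2 single cells picked from papain-dissociated retina of CD1 mice, 1 at embryonic day 12.5 (E12.5) and 1 at postnatal day 0 (P0), called the embryonic and the newborn cell here. No genotype or treatment other than dissociation is given for either. The submitters assigned both cells to the developing ciliary body, the rim of the optic cup next to the iris, from their expression after the arrays were read. Each cell's cDNA was amplified by 35 cycles of PCR and hybridised to its own array, so each age is 1 cell with no replicate, and every difference below is between these 2 cells, with no test.

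In this pathway a dimeric ligand joins 2 kinds of serine/threonine kinase receptor, type I and type II, and the type I receptor phosphorylates a receptor Smad. BMP receptors act mainly on the products of Smad1, Smad5 and Smad9, and TGF-beta and activin receptors on those of Smad2 and Smad3. Both kinds enter the nucleus with the product of Smad4, and the Id genes are among the best known BMP targets. BMP signalling patterns the optic cup and is needed for the ciliary body to form, and TGF-beta2 acts in development of the anterior eye.

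With the BMP and TGF-beta branches pooled, each cell had detected genes among the ligands, the type I and type II receptors and the Smads. In the embryonic cell Tgfb2 was the only ligand gene detected. Tgfbr2, the type II receptor gene for TGF-beta ligands, was detected in neither cell. A gene was represented by the probe set whose log2 signal averaged highest over both cells and counted as detected when its MAS5 signal, an intensity in arbitrary units, exceeded 236 in the embryonic cell or 326 in the newborn cell. These limits are the 99th percentile of 213 probe sets for genes foreign to the eye, such as olfactory receptors and keratin-associated proteins. Of the 61 genes, 17 were detected in the embryonic cell, 16 in the newborn cell, 9 in both and 37 in neither. Of all 18194 named genes, 30.8% were detected in the embryonic cell and 28.7% in the newborn cell, against 27.9% and 26.2% of the members, so the families as a whole were detected about as often as other genes. A transcript below the limit was not detected and may have been lost in amplification.

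A gene counted as higher in 1 of the cells when it was detected there and its signal was at least 4 times that of the other cell, each signal first being raised to its array's limit. By this measure 7 members were higher in the newborn cell, where 9.46% of all named genes were, and 5 in the embryonic cell, where 7.63% were. These shares lie near the background, so neither count sets the families apart. The hybridisation controls (18 probe sets for transcripts spiked into each hybridisation) had a median newborn over embryonic ratio of 1.83. With scaling to these in place of the deposited scaling, the members split into 6 and 8. With it, the share of all called genes that were higher in the newborn cell went from 55.4% to 33.7%. That share was 50.8% with nearly equal limits at the 95th percentile (120.1 and 119). It was 50.0% with limits from bacterial controls and 50.2% with a pseudocount of 100. The median log2 ratio of P0 over E12.5 was 0.60 for the 24 members detected in at least 1 cell and 0.02 for the 7365 such genes in all. The median of the members was not stable, at 0.08 with limits from bacterial controls and -0.25 with no limit. Without the 6 genes that match only by name, it was 0.03 over 20 members, and 5 were higher in each cell.

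**Figure D1:**
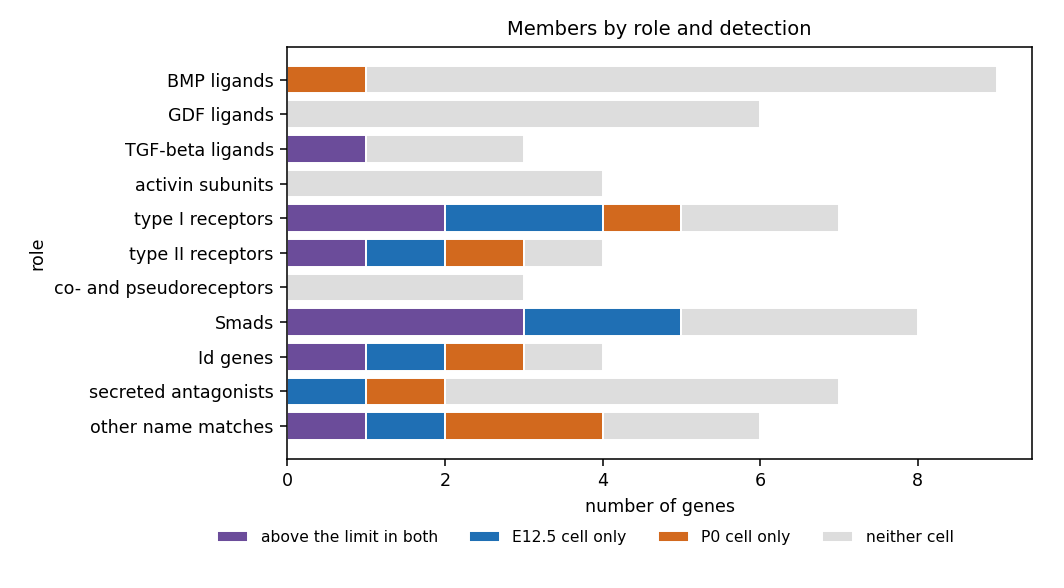
Number of member genes in each role (horizontal axis, genes), coloured by the cell in which the signal exceeded the array's limit. Receptors and Smads hold most of the genes detected in both cells, and most ligand genes were detected in neither.

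Among the 22 ligand genes, Bmp7 and Tgfb2 were detected, while 30.8% of all named genes were in the embryonic cell and 28.7% in the newborn cell. Bmp7, which encodes a BMP needed for normal eye development, had a signal of 116 in the embryonic cell and 1905 in the newborn cell. Its P0 signal was at least 8.07-fold higher, and a second probe set gave 58.1 and 1065, at least 4.51-fold. Bmp7 was therefore detected in the newborn cell alone, and its E12.5 signal lay above the limit taken from bacterial control probe sets (111).

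Tgfb2, which encodes the TGF-beta of the anterior eye, had 1146 in the embryonic cell and 4411 in the newborn cell. The ratio of 3.85 fell just short of a call. The other 3 probe sets of Tgfb2 gave 1187 and 1773, 486 and 893, and 12.3 and 597, so in the deposited scaling all 4 were higher in the newborn cell. With scaling to the hybridisation controls, the log2 ratio of the representative was 1.07 in place of 1.95. That scaling lowers each log2 ratio by 0.87. The first 2 of the other probe sets had log2 ratios of 0.58 and 0.88, so the agreement in direction depended on the scaling.

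Neither cell was above its limit for Bmp4 (49.3 in the embryonic cell and 2.43 in the newborn cell), a BMP of the dorsal optic cup, or for Bmp2 (3.37 and 3.08). Tgfb1 (82.9 and 65.9) and Tgfb3 (58.9 and 2.34), the other TGF-beta genes, were likewise below it. None of the 9 BMP genes was detected in the embryonic cell, and none of the 6 GDF genes or 4 activin subunit genes in either. Within the GDF genes, Gdf11, which in the retina limits the number of ganglion cells, had 131 and 89.9 and passed the E12.5 limit only when bacterial controls or the 95th percentile (120.1) set it.

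Receptors were detected more completely than ligands, with 6 of 11 type I and type II genes in the embryonic cell and 5 in the newborn cell. The shares over all named genes were 30.8% and 28.7%. Every one of these receptor genes had at least 2 probe sets, while many ligand genes had 1. As the brightest probe set represents a gene, probe set number may enter this contrast, which was not tested. Each cell had detected genes of type I and of type II. The type I receptor genes detected in both were Bmpr1a, a principal BMP receptor, with 1315 in the embryonic cell and 2336 in the newborn cell, and Tgfbr1, the TGF-beta receptor kinase, with 8569.6 and 4449. The Bmpr1a ratio of 1.78 and the Tgfbr1 ratio of 1.93 in the opposite direction were close to 1.80, the SD as a fold of the ratio between probe sets of the same gene (log2 SD 0.85 over 991 genes with at least 2 probe sets above both limits). That SD holds array error but no variation between cells. With hybridisation control scaling the log2 ratio of Bmpr1a was -0.04 in place of 0.83.

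Of the other 5 type I receptor genes, Acvr1 and Bmpr1b were called, in opposite directions. Acvr1, which encodes a BMP receptor that pairs with BMP7-class ligands, had 46.4 in the embryonic cell and 7469 in the newborn cell, at least 31.6-fold higher in the latter. A second probe set of Acvr1 gave 7.29 and 863, at least 3.66-fold, while the third (55.8 and 3.19) was below both limits. Bmpr1b, the second BMP type I receptor gene, went the other way, with 1372 in the embryonic cell and 57.8 in the newborn cell, at least 4.21-fold higher in the embryonic cell. Acvr1b, an activin type I receptor gene, had 863 and 8.91, at least 2.65-fold higher in the embryonic cell and so not called.

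Acvr1c, which serves Nodal and activin, and Acvrl1, the endothelial receptor for Gdf2 and Bmp10 products, were detected in neither cell. Their signals were 13.3 and 65.1 for Acvr1c, and 68.2 and 33.5 for Acvrl1.

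The activin type II receptor genes were detected in opposite cells, while 3455 of the 7365 named genes detected in at least 1 cell were in both. Acvr2a had 8.84 in the embryonic cell and 1077 in the newborn cell, at least 4.56-fold higher in the newborn cell, whereas Acvr2b had 2152 and 15.3, at least 6.61-fold higher in the embryonic cell. Both encode receptors that accept activins, GDFs and some BMPs. Bmpr2, the type II receptor gene specific to BMPs, was detected in both cells (769 and 1723), 2.24-fold higher in the newborn cell. With hybridisation control scaling the log2 ratio of Bmpr2 was 0.29 in place of 1.16, and its other probe sets were below both limits. Tgfbr2, the type II receptor through which TGF-beta ligands enter the pathway, was below the limit in both on all 3 probe sets, with 56.4 in the embryonic cell and 43.5 in the newborn cell for the representative. The Acvr2a call was lost with hybridisation control scaling, where its log2 ratio was 1.32. Of the 2 probe sets of Acvr2a and the 3 of Acvr2b, 1 each was above a limit.

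The promoters of Acvr2a and Acvr2b are shown because these related receptors were detected in opposite cells. The sequences are the 250 bases before the start site, from RefSeq on GRCm38.p6, which gave a window for 41 of the 61 members. They were searched on both strands for GGCGCC, a GC-rich element bound by BMP Smads, CAGAC, the core Smad-binding element, and TATAAA, the TATA box, and matches are in capitals. No match overlapped one of another motif. In the same 250-base window of all 32851 promoters in the table, 9.59% held GGCGCC, 42.2% CAGAC and 12.4% TATAAA, and the median GC content was 52.4%.
Acvr2a, chr2:48813859-48814108, plus strand: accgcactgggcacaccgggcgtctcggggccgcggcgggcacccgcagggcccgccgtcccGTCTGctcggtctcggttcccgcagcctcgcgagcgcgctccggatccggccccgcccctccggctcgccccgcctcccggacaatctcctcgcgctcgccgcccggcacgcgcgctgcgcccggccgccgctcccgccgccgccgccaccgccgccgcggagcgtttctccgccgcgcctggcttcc
Acvr2b, chr9:119401928-119402177, plus strand: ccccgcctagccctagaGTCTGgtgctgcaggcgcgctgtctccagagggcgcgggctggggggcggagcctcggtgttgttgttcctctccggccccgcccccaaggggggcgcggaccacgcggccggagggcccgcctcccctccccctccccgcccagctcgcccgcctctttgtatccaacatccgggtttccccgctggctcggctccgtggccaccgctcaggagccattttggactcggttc
Both windows were GC-rich, at 82.0% for Acvr2a and 72.8% for Acvr2b. Each held 1 CAGAC match, on the minus strand, 188 to 184 bases before the start site in Acvr2a and 233 to 229 bases before it in Acvr2b. By these motifs the windows did not differ, and no binding was measured.

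The co-receptor gene Tgfbr3 (9.18 in the embryonic cell and 34.6 in the newborn cell) and the decoy receptor gene Bambi (37.1 and 1.71), which lacks a working kinase, were below the limit in both. The Bambi pseudogene Bambi-ps1 was too (10.7 and 73.6).

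**Figure D2:**
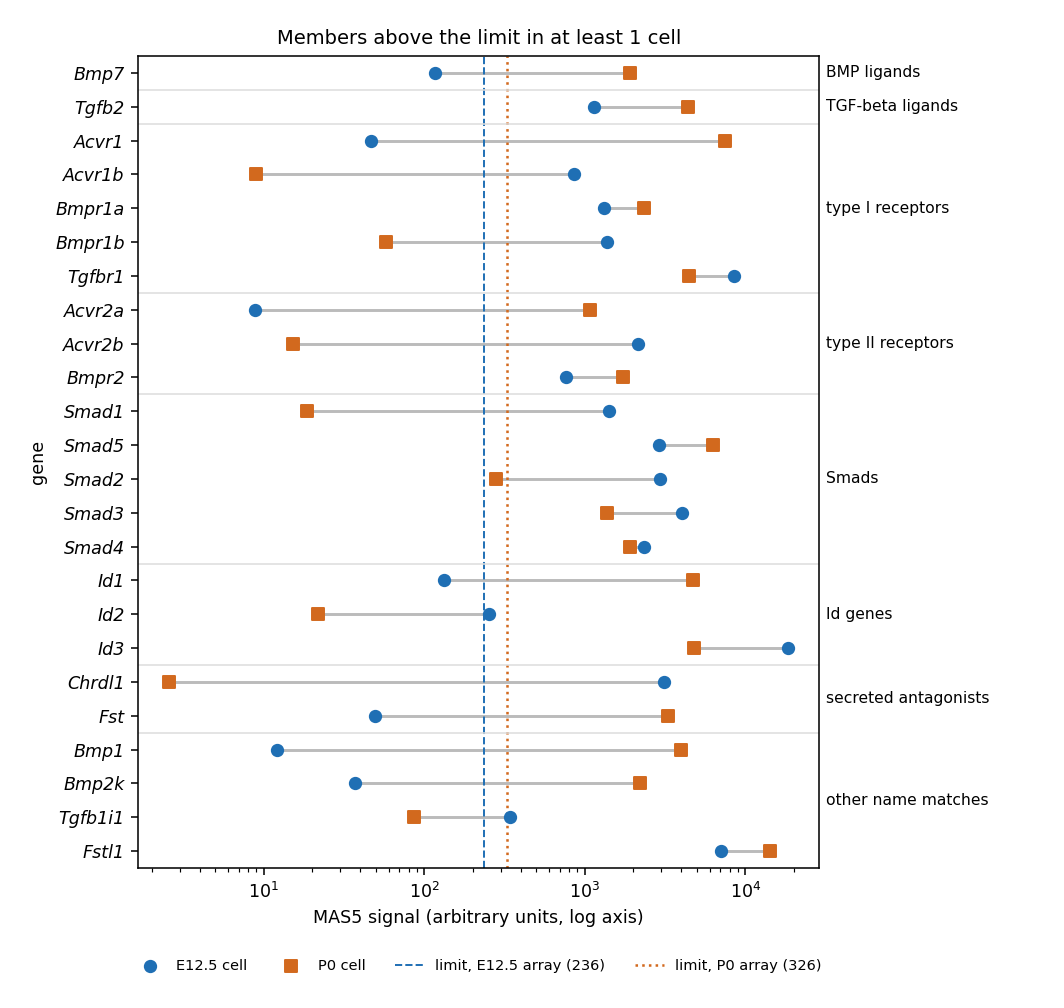
MAS5 signal (log axis, arbitrary units) of the 24 member genes above the limit in at least 1 cell, by role; circles are the embryonic cell, squares the newborn cell, and vertical lines the array limits of 236 and 326. Smad3, Smad4, Smad5, Bmpr1a, Bmpr2, Tgfbr1, Tgfb2, Id3 and Fstl1 lie to the right of both limits in both cells.

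All 5 receptor and common Smad genes that were detected at all were detected in the embryonic cell, and 3 of them in the newborn cell. These are 62.5% and 37.5% of the 8 Smad genes, against 30.8% and 28.7% of all named genes. Smad1, a BMP receptor Smad, had 1411 in the embryonic cell and 18.6 in the newborn cell, at least 4.33-fold higher in the embryonic cell. Its other probe sets gave 1028 and 6.13, and 554 and 4.59, so all 3 were above the limit in the embryonic cell and below it in the newborn cell. The lower bounds from these 2 were 3.16-fold and 1.70-fold.

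Smad5, the partner of Smad1 in BMP signalling, had 2889.7 in the embryonic cell and 6261 in the newborn cell, 2.17-fold higher in the newborn cell. A second probe set read the opposite way, with 2074 and 59.6, at least 6.37-fold higher in the embryonic cell. The direction of Smad5 thus depended on the probe set, and the mean over its 3 probe sets gave a log2 ratio of -1.44 in place of 1.12. With hybridisation control scaling the log2 ratio of the representative was 0.24. Smad9, the third BMP receptor Smad, was detected in neither cell (9.14 and 3.95).

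Of the TGF-beta and activin Smads, Smad2 had 2957 in the embryonic cell and 282 in the newborn cell, at least 9.08-fold higher in the embryonic cell. The P0 signal lay just under its limit and above the limit at the 95th percentile (119), where the log2 ratio was -3.39. Smad3 was detected in both cells, with 4059.9 and 1373, 2.96-fold higher in the embryonic cell. Its other probe sets were below both limits, and the mean over the 3 turned the log2 ratio from -1.56 to 0.25.

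Smad4, whose product joins every receptor Smad, had 2335 in the embryonic cell and 1901 in the newborn cell, a ratio of 1.23. A second probe set gave 2989.9 and 735, 4.07-fold higher in the embryonic cell, so that the size of the difference depended on the probe set. The ratio of 1.23 was smaller than 1.80, the SD as a fold between probe sets of 1 gene, and so gives no clear direction. The third probe set of Smad4 (71.6 and 21.0) was below both limits. The inhibitory Smads, which are themselves induced by the pathway and feed back on it, were below the limit in both cells, with 10.6 and 12.5 for Smad6 and 6.65 and 45.4 for Smad7.

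The Id genes, which encode helix-loop-helix proteins without a DNA-binding region that hold back differentiation, showed a different pattern in each cell. Id3 had 18550.3 in the embryonic cell and 4818 in the newborn cell, a ratio of 3.85 that fell just short of a call. With hybridisation control scaling its log2 ratio was -2.82 in place of -1.94. Id1 had 133 in the embryonic cell and 4748 in the newborn cell, at least 20.1-fold higher in the newborn cell, and was detected there alone. The E12.5 signal of Id1 exceeded the limit at the 95th percentile. Both genes were read by 1 probe set each.

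Id2 barely passed the limit in the embryonic cell (253) and was below it in the newborn cell (21.8), so no fold is given. Id4, a member expressed by neural progenitors, was below the limit in both cells (30.9 and 119). Id3 was thus the only Id gene detected in both cells.

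The promoters of Id2, Id3 and Id4 are printed to set side by side a member detected in both cells and those near or below the limit. They are again the 250 bases before the start site, 5' to 3', with the same motifs in capitals.
Id3, chr4:136143572-136143821, plus strand: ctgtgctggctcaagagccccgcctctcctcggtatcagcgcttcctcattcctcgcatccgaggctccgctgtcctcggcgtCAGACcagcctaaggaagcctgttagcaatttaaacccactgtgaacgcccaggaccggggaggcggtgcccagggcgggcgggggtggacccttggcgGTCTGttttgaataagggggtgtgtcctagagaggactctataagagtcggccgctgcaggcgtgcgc
Id2, chr12:25096093-25096342, minus strand: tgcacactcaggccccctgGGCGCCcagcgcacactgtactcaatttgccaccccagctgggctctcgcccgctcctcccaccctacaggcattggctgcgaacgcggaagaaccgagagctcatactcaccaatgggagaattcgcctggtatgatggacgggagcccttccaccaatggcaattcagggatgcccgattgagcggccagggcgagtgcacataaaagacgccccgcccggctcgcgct
Id4, chr13:48260866-48261115, plus strand: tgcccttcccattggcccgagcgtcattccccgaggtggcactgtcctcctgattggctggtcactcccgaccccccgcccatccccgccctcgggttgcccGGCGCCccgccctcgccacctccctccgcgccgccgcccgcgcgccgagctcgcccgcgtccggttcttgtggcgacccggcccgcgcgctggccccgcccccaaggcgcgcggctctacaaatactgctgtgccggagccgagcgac
Id3 held 2 CAGAC matches, at 167 to 163 bases before the start site on the plus strand and at 68 to 64 bases on the minus strand. Id2 held 1 GGCGCC match 231 to 226 bases before its start site, and Id4 held 1 at 148 to 143 bases. GC content was 62.8% in Id2 and Id3 and 75.6% in Id4. The matches are a description of these letters, and TATAAA matched in none of the 5 windows shown.

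Secreted antagonists bind ligands outside the cell. Of the 7 genes, 1 was detected in each cell (14.3%, against 30.8% and 28.7% of all named genes), and the 2 differed. Of the 7365 named genes detected in at least 1 cell, 2145 were detected in the embryonic cell alone and 1765 in the newborn cell alone. The lack of overlap thus does not set the antagonists apart. Chrdl1, which encodes the chordin-like BMP antagonist of the eye, had 3122 in the embryonic cell and 2.58 in the newborn cell, at least 9.58-fold higher in the embryonic cell, by 1 of its 4 probe sets. Fst encodes follistatin, which binds activins and some BMPs. It had 49.0 in the embryonic cell and 3321 in the newborn cell, at least 14.1-fold higher in the newborn cell, by 1 of its 2 probe sets.

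The classical BMP antagonist genes Nog (28.1 in the embryonic cell and 4.36 in the newborn cell), Chrd (10.8 and 135) and Grem1 (54.2 and 50.3) were below the limit in both cells. So were Chrdl2 (28.6 and 175) and Fstl3 (112 and 10.4). The P0 signals of Chrd and Chrdl2 exceeded the limit at the 95th percentile.

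Of the 6 genes that match the families only by name, 4 were detected. Bmp1 encodes a metalloprotease that matures collagens and cleaves chordin, and had 12.1 in the embryonic cell and 3999 in the newborn cell, at least 16.9-fold higher in the newborn cell. Fstl1, a secreted glycoprotein gene, was detected in both cells (7106 and 14283), 2.01-fold higher in the newborn cell, and its second probe set had the same direction (42.3 and 521). Bmp2k, a BMP-inducible kinase gene, had 37.2 and 2208, at least 9.35-fold higher in the newborn cell. A second probe set of Bmp2k had 918 and 6.01, at least 2.82-fold higher in the embryonic cell, so its direction was not settled. Tgfb1i1, a focal adhesion gene, had 344 in the embryonic cell and 86.9 in the newborn cell and was detected in the embryonic cell alone.

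**Figure D3:**
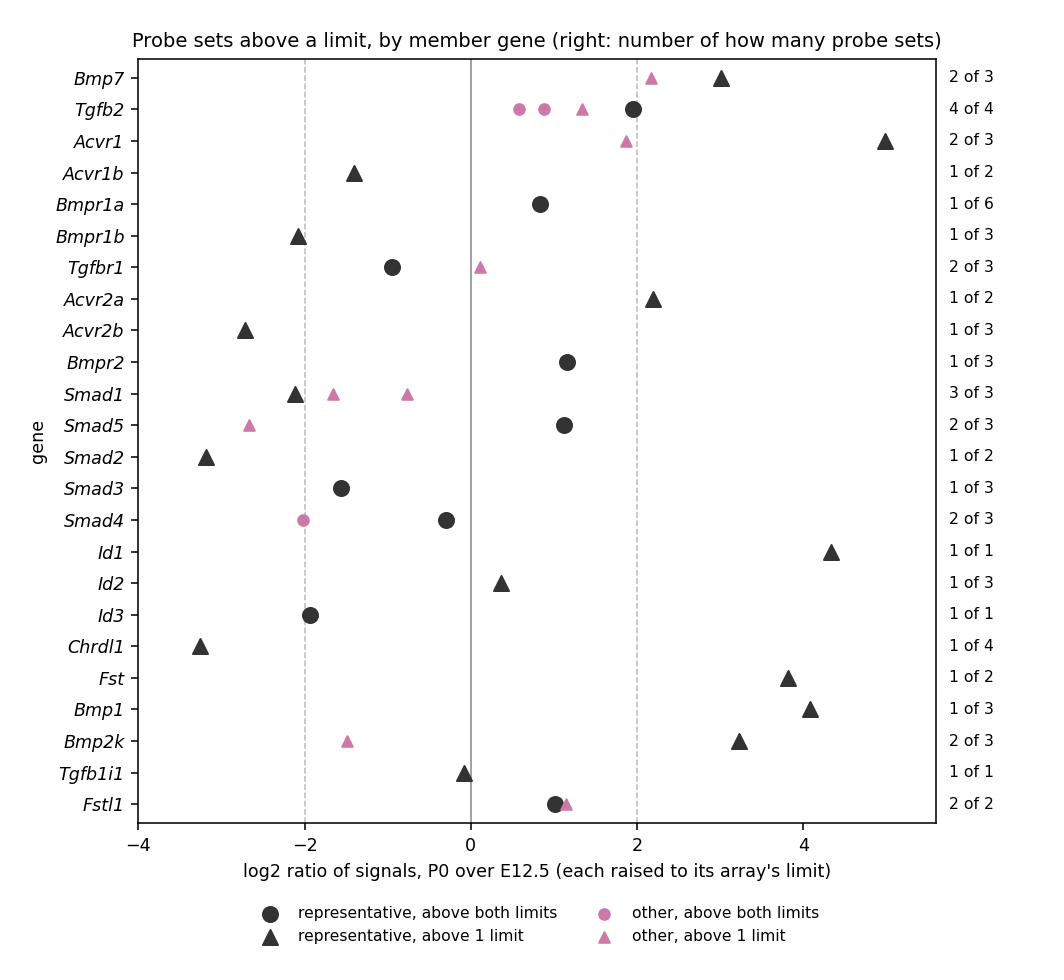
Log2 ratio of P0 over E12.5 for each probe set above a limit, by member gene, with each signal raised to its array's limit. Dark marks are the representative probe sets, pink marks the others, and numbers at the right count probe sets above a limit. Triangles are bounds, except that of Id2 and the pink one of Tgfbr1, for which no fold is given. Tgfb2, Bmp7, Acvr1 and Smad1 agree in direction over the probe sets shown, and Smad5, Bmp2k and Tgfbr1 have marks on both sides of 0.

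Most detected members rested on 1 probe set. Of the 21 detected members with at least 2 probe sets, 12 (57.1%) had only 1 above a limit and 3 (14.3%) had all above. Over all 4971 such genes on the array, the shares were 45.9% and 26.0%. The members with every probe set above a limit were Tgfb2, Smad1 and Fstl1. Averaging the log2 signals of all probe sets of a gene ended 11 of the 12 member calls. The call left was that of Id1, which has 1 probe set, so averaging could not change it. Averaging left Smad2, Acvr2b, Bmpr1b, Chrdl1, Acvr1, Acvr2a, Bmp1, Bmp2k and Bmp7 with both signals at the limit. There the log2 ratio of 0.46 is that of the limits themselves.

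Genes of the pathway outside the naming rule were read from a list of 89, of which 82 had a probe set with 1 gene symbol. Of these, 30 were detected in the embryonic cell and 27 in the newborn cell (36.6% and 32.9%, against 30.8% and 28.7% of all named genes). The calls at 4-fold numbered 10 in favour of the newborn cell and 10 in favour of the embryonic cell, where 9.46% and 7.63% of all named genes were called. Intracellular regulators had the highest share detected of the 4 groups on the list in each cell, 17 and 16 of 27 (63.0% and 59.3%). Ligands and co-receptors had 2 and 1 of 11. The median log2 ratio of the 41 detected in at least 1 cell was 0.49, against 0.02 over all such genes.

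Of the 24 genes of extracellular control, 8 were detected in the embryonic cell and 5 in the newborn cell. Of these genes, 4 were called higher in the former and 3 in the latter. Over all named genes, 30.8% and 28.7% were detected, and 7.63% and 9.46% were called higher. Ltbp1, encoding a latent TGF-beta binding protein, had 8649 in the embryonic cell and 28.3 in the newborn cell, at least 26.6-fold higher in the embryonic cell, and 2 more probe sets were called in that direction. Itgb8, an integrin gene whose product activates latent TGF-beta, had 1922 and 5.83, at least 5.90-fold higher in the embryonic cell. Ltbp3, a relative of Ltbp1, had 1917 and 7811, 4.07-fold higher in the newborn cell, with a second probe set at 51.6 and 6709.5. The secreted protease gene Htra1 had 83.0 and 1308, at least 5.54-fold higher in the newborn cell, and its second probe set gave 14.2 and 1883.

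On the same list Ltbp2, Ltbp4, Thbs1 and Itgb6, which also act on latent TGF-beta, were below the limit in both cells, and Itgav, an integrin gene, was detected in both (1283 and 2284), a ratio of 1.78. Of the BMP regulators on this list, Sostdc1, a BMP and Wnt antagonist gene, had 2740.4 in the embryonic cell and 41.3 in the newborn cell, at least 8.41-fold higher in the embryonic cell, and its second probe set was also called (1331 and 14.7). Twsg1, which encodes a partner of chordin, had 2493 and 171, at least 7.65-fold higher in the embryonic cell. That call was lost without probe sets ending in _s_at or _x_at, and the next probe set (929 and 4.39) gave at least 2.85-fold. Bmper, whose product binds BMPs, had 27.6 and 3969, at least 16.8-fold higher in the newborn cell.

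Intracellular regulators of Smads were called in both directions. Higher in the embryonic cell were the Smad corepressor genes Tgif2 (4630.1 against 144, at least 14.2-fold) and Skil (3636 against 2.13, at least 11.2-fold). Tob1 (1760.4 against 84.1), the Smad anchor gene Zfyve9 (1670.1 against 30.2) and Tgfbrap1, whose product binds TGF-beta receptors (1479.8 against 9.13), were at least 5.40-fold, 5.13-fold and 4.54-fold higher there. Higher in the newborn cell were the ubiquitin ligase gene Smurf2 (3662 against 5.48, at least 15.5-fold), the corepressor gene Ski (2310.5 against 229, at least 9.79-fold) and the phosphatase gene Ppm1a (2035 against 188, at least 8.62-fold). Trim33, whose product regulates Smad4, had 325 in the embryonic cell and 1583 in the newborn cell (4.88-fold), and Usp9x, a deubiquitinase gene, had 575 and 2469.6 (4.29-fold). Second probe sets of Ski (1143 in the embryonic cell and 22.6 in the newborn cell), Ppm1a (2619 and 1.59) and Usp9x (1338 and 2.01) read the opposite way. With hybridisation control scaling Trim33, Usp9x, Ltbp3 and Htra1 were no longer called, with the pseudocount of 100 Trim33, Usp9x and Ltbp3 were not, and with the mean over probe sets 9 of the 20 other pathway calls remained.

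**Figure D4:**
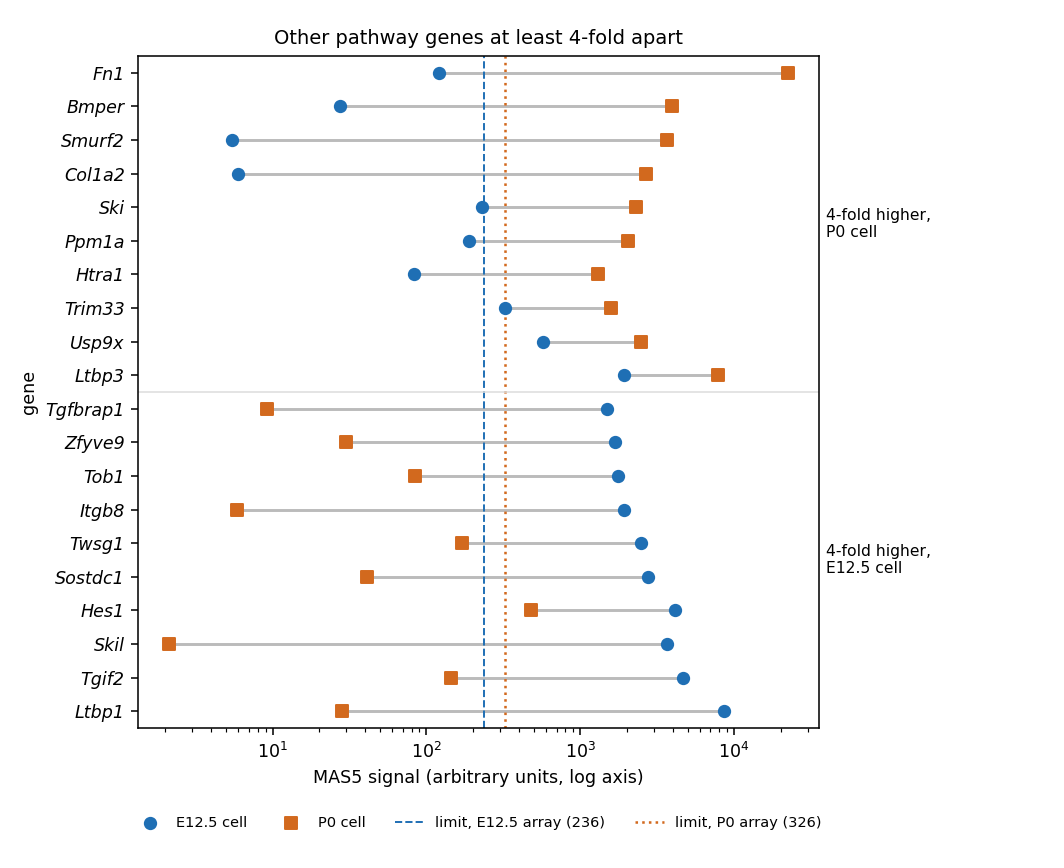
MAS5 signal (log axis, arbitrary units) of the 20 other pathway genes at least 4-fold apart, circles for the embryonic cell and squares for the newborn cell, with the array limits of 236 and 326 as vertical lines. Each cell is the brighter one for 10 genes, and for most of them the dimmer cell lies left of its limit.

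Of 20 target genes other than the Id genes, 3 were detected in the embryonic cell (15.0%, against 30.8% of all named genes) and 5 in the newborn cell (25.0%, against 28.7%). In neither cell were 14 of the 20 detected, nor were 10829 of the 18194 named genes, so the list is not set apart by these counts. The homeobox genes Msx1 (116 in the embryonic cell and 39.3 in the newborn cell) and Msx2 (129 and 102), BMP targets of the ciliary margin, were detected in neither. Hes1, a Notch effector that also responds to BMPs, had 4139.7 and 479.7, 8.63-fold higher in the embryonic cell. The matrix genes Fn1 (120.1 and 22481) and Col1a2 (6.0 and 2653), both induced by TGF-beta in many cells, had the higher signal at P0, at least 95.2-fold and 11.2-fold, and a second probe set of Fn1 was also called there. No other probe set of Col1a2 was above a limit, and its call was lost with the mean over probe sets. Col1a1, on the same list, was below the limit in both cells (51.1 and 11.5).

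Markers of the labelled region were present in part. The submitters assigned the cells from their expression, and the lists were chosen with earlier results known, so these counts cannot support the label. Over all named genes, 30.8% were detected in the embryonic cell and 28.7% in the newborn cell. Of 18 ciliary margin genes, 9 were detected in the embryonic cell, 7 in the newborn cell and 6 in both, and Msx1, Msx2, Mitf, Wnt2b, Axin2, Lef1, Boc and Wls in neither. The summed signal of the 18 was 73745 in the embryonic cell and 40231 in the newborn cell. Of 11 markers of periocular mesenchyme and fibroblasts, 0 were detected in the embryonic cell and 2, Col1a2 and Pdgfra, in the newborn cell. Their summed signal was 776 in the embryonic cell and 6258 in the newborn cell, while Foxc1, Foxc2, Twist1, Prrx1, Col1a1 and Col3a1 were below the limit in both. Col1a2 stands on both this list and that of pathway targets, and Msx1 and Msx2 on both the margin and the target list. Of 8 vascular genes, with sums of 539.9 and 1318, Rgs5 was detected in the newborn cell (833) and none in the embryonic cell. None of 7 lens and surface ectoderm genes (sums 362 and 605) or 4 photoreceptor genes (194 and 78.5) was detected, and of 4 ganglion cell genes (1645 and 381) Gap43 was, in the embryonic cell. The part of these other cell types' RNA in the members' differences was not tested.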

How the data were processed

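Both arrays come as 1 table of signal intensities on a linear scale, deposited by the authors, who computed them with MAS5, as stated per the submitters' processing notes and in the text on the series' design. MAS5 scales each array alone, and the mean over probe sets without 2% at each end was 500.0 in both. No depth applies to arrays, and their number limits the precision.

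Platform symbols of 34754 of 34958 probe sets with 1 symbol were updated by gene identifier through RefSeq (GRCm38.p6), and 932 probe sets with several symbols and 9211 with none were left out. Limits, calls and folds were computed in Python 3.11.15 with pandas 2.3.3 as described above, and "at least" marks a dimmer cell below its limit. Named are all members detected in at least 1 cell, members that define a role, and the other pathway genes called, up to 10 in each direction. Alternatives were other limits (95th percentile, bacterial controls), scaling to hybridisation controls, quantile normalisation, a pseudocount of 100, the mean over probe sets, no probe sets ending in _s_at or _x_at, calls at 2-fold or 8-fold, and no limit. The members and lists were chosen with earlier results of these data known.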

Additional observations from a re-analysis of the deposited data

How the results depend on the processing

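Of the 12 member calls, all 12 were kept in the same direction with quantile normalisation and the pseudocount, and 11 with hybridisation control scaling. All 12 were also kept under limits from bacterial controls or the 95th percentile, without _s_at and _x_at probe sets and without a limit. These last settings could not have ended a call, so they do not test the calls. In every call the dimmer cell was below its limit, and a lower limit, or none, can only widen such a difference. Without _s_at and _x_at probe sets the limits were also lower (173 and 176), and no called representative was of these kinds. Counts moved more. Members higher in the embryonic cell (5) numbered 8 at 2-fold, 2 at 8-fold, 8 with hybridisation control scaling, 16 without a limit and 0 with the mean over probe sets. Members higher in the newborn cell (7) numbered 11 at 2-fold, 14 without a limit and 3 with the mean. Of all named genes, 13.7%, 21.6% and 4.90% were higher there in these settings. Of the 3 members with the mean, only Id1, which has 1 probe set, was among the 7, and Tgfb2 (log2 ratio 2.25) and Fstl1 (2.32) were added. Detected members (17, 16 and 9 in both) became 8, 5 and 3 with the mean, and counting any probe set, a choice made after the values were seen, gave 18, 16 and 10. The median log2 ratio of members (0.60) was -0.28 with hybridisation control scaling, when that of all genes was -0.85, and -0.25 without a limit. It was 0.08 with bacterial controls, 0.09 with the mean, 0.17 at the 95th percentile, 0.25 with the pseudocount, 0.27 without _s_at and _x_at probe sets and 0.59 with quantile normalisation. With the mean, the log2 ratios of Acvr2b, Bmpr1b, Chrdl1 and Smad2 turned to 0.46, 0.46, 0.46 and 0.46 because both signals were at the limit. Those of Acvr1, Acvr2a, Bmp1, Bmp2k and Bmp7, called higher in the newborn cell, were 0.46 for the same reason. The other pathway genes detected (30 and 27) were 16 and 10 with the mean, and 44 in the newborn cell with bacterial controls. With those controls 43.5% of all named genes were detected there. Other pathway genes higher in the embryonic cell (10) were 5 at 8-fold, 6 with the mean and 16 without a limit. Those higher in the newborn cell (10) were 16 at 2-fold, 6 at 8-fold, 3 with the mean and 22 without a limit. With hybridisation control scaling they were 6. Beside the shares given above, 5.66% of all named genes were higher in the newborn cell at 8-fold and 6.07% with hybridisation control scaling. Apart from the limit and fold themselves, the cause of these shifts was not tested. No paired analysis was possible because each age is 1 cell.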

Other observations

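The array held 2 further probe sets that name a member beside another gene, Gdf1 with Cers1 (10.6 in the embryonic cell and 41.9 in the newborn cell) and Acvr2a with Orc4 (80.2 and 76.8), and neither was above a limit.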
